A study of Bos taurus with 48 samples.

Results

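The transcripts described here are 9 genes of the interleukin 1 (IL1) family and of the inflammasome that activates it, namely the ligands IL1A, IL1B and IL18, the antagonists IL1RN and IL18BP, the receptor IL1R1, and the inflammasome components NLRP3, PYCARD and CASP1. They were chosen by name, and each was found on the array as 1 probe printed in 2 spots, among 21475 non-control probes. PYCARD is listed on the array under its older symbol ASC and NLRP3 under CIAS1, and the probe for IL1R1 was designed from an expressed sequence tag that found no match in the RefSeq table used here. All 9 probes passed the filter on signal, as did 15646 probes in all.

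Endometrium was collected at slaughter on day 17 of the reproductive cycle from 22 lactating Holstein Friesian dairy cows of mixed New Zealand and North American ancestry, all with synchronized oestrous cycles. The cyclic group (10 cows) received no embryo, and the pregnant group (12 cows) had received a blastocyst of grade 1 quality on day 7. Each cow gave caruncular endometrium, the projections to which the ruminant embryo attaches, and intercaruncular endometrium, which holds the uterine glands, so that there were 44 samples in 4 groups. The embryo recovered was large in 7 pregnant cows (over 20 cm and 75 mg) and small in 5 (under 20 cm and 40 mg), and the titles of the samples class 6 pregnant cows as fertile and 6 as sub-fertile. Of the fertile cows 3 had a large and 3 a small embryo, and of the sub-fertile cows 4 had a large and 2 a small one. Each value below is the log2 ratio of a sample (Cy5) to a pool of all 44 samples (Cy3) hybridised to the same array, so that 0 is the level of the pool, and levels cannot be compared between genes.

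IL1A and IL1B are alarm cytokines that bind IL1R1 and start signalling through MYD88 and NF-kappa B, and IL1RN occupies the same receptor without starting it. IL18 is a related cytokine that drives interferon gamma production by T lymphocytes and natural killer (NK) cells, and IL18BP is a secreted decoy that captures it. IL1B and IL18 are made as inactive precursors. They are cut to their active form by CASP1, a protease that is itself activated when a sensor such as NLRP3 assembles with the adaptor PYCARD into an inflammasome. The arrays measured transcripts, and neither cleavage nor secretion. In the uterus this family is known for its part in implantation and in the response to infection, and in ruminants the embryo of this age releases interferon tau, which prevents luteolysis.

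The probes of the 3 members that passed the threshold for pregnancy in both tissues (IL18, PYCARD and NLRP3) are shown as the arrays' 60-base designs, since those results rest on what these letters hybridise to. They are given 5′ to 3′ in lower case, with no base marked by capitals.
IL18: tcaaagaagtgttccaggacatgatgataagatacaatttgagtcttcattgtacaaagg
PYCARD: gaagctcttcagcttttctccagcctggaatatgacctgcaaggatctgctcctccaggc
NLRP3: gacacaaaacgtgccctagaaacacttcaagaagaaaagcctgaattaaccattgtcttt
The IL18 and PYCARD probes each held 2 of 3 forward frames without a stop codon, and the NLRP3 probe held 1. Guanine and cytosine made up 35.0% of the IL18 probe, 38.3% of the NLRP3 probe and 53.3% of the PYCARD probe.

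The arrays were similar in quality between groups, with a median of 70.0 to 72.6% of spots well above background. The sample signal was well above background in 44 of 44 samples for every member but NLRP3, which reached it in 35 of 44. For NLRP3 this held in 12 of 12 pregnant and 8 of 10 cyclic caruncular samples, and in 10 of 12 pregnant and 5 of 10 cyclic intercaruncular samples. NLRP3 is therefore the faintest member and the one whose ratios rest on the least signal. The slides followed the groups closely. Among 7 slides per tissue, 1 held both states (3 pregnant cows and 1 cyclic cow), and all but 1 pregnant and 1 cyclic cow of each tissue were scanned in a batch of that tissue alone.

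Most of the family rose with pregnancy in caruncular endometrium and fewer members did in intercaruncular endometrium. Of 9 members 7 passed the threshold in caruncular tissue, all higher in pregnant cows (IL1B, IL18, IL1RN, IL18BP, NLRP3, PYCARD and CASP1), where 5.96% of all probes tested were called higher. In intercaruncular tissue 3 members passed, all higher (IL18, NLRP3 and PYCARD), against 4.15% of all probes tested. No member was called lower in pregnant cows, as 4.27% of all probes tested were in caruncular and 3.29% in intercaruncular tissue. A member was called where it changed by 1.5-fold or more and its limma p, adjusted by Benjamini-Hochberg over every probe tested, was under 0.05. The median change over the 9 members was 0.85 on the log2 scale in caruncular and 0.42 in intercaruncular tissue, beside -0.04 and -0.01 over all probes tested. In whole tissue a change in the number of cells of a type and a change in RNA per cell cannot be told apart.

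**Figure D1:**
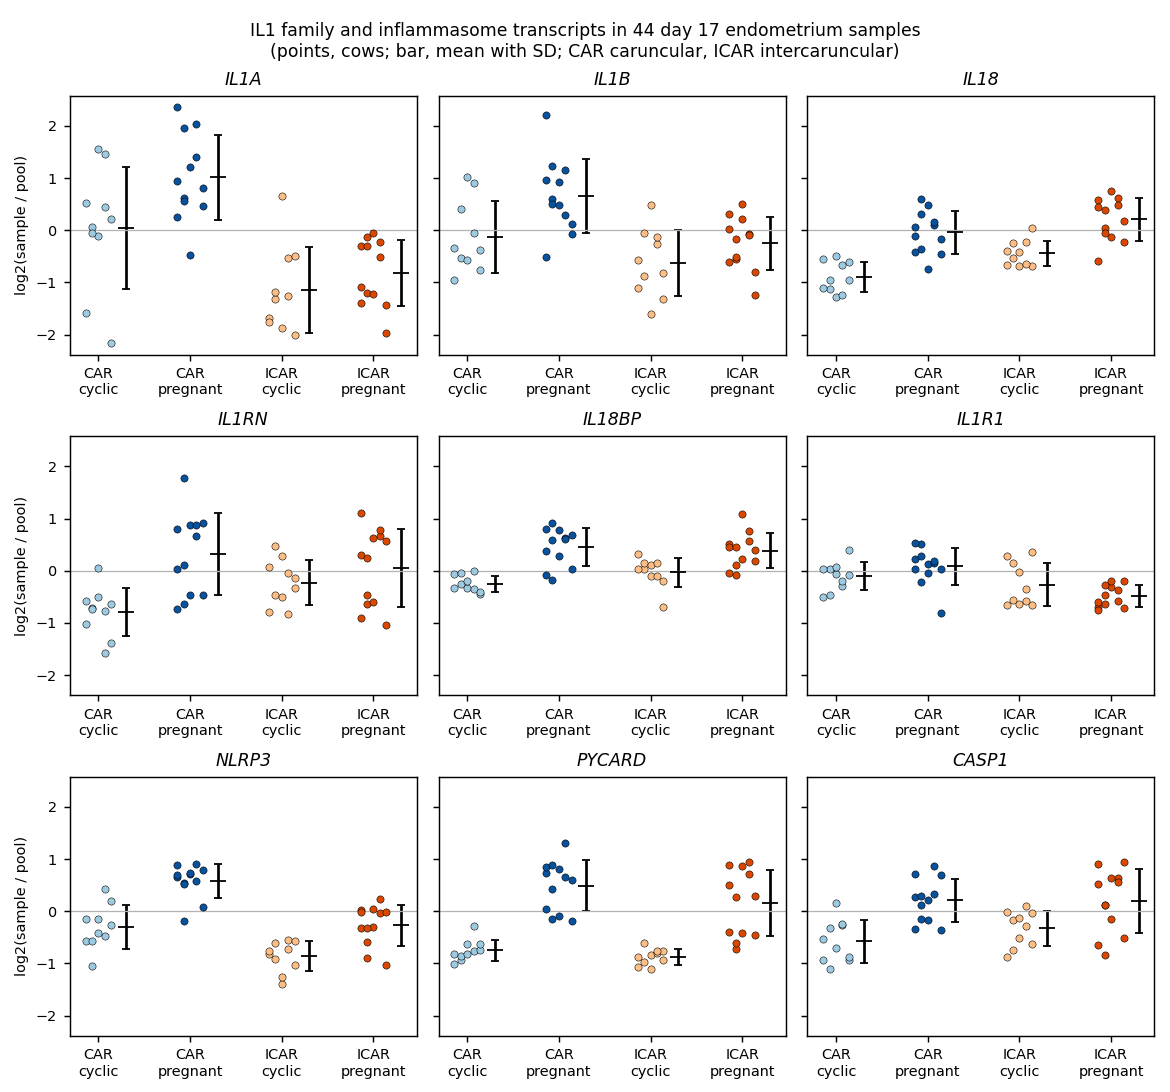
Log2 ratio to the pool (vertical axis) of each of the 9 members in the 4 groups, with 1 point per cow and a bar for the group mean and SD. PYCARD in caruncular tissue is the member whose pregnant cows (-0.19 and above) all lie over the cyclic cows (-0.27 and below), while IL1A and IL1B spread widely in every group.

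Among the ligands, IL18 had the change that was largest against its spread. Its caruncular log2 ratio ran from -1.29 to -0.50 with a median of -0.95 in 10 cyclic cows, and from -0.74 to 0.60 with a median of -0.02 in 12 pregnant cows. All but 1 pregnant cow lay above the highest cyclic cow. The change was 0.85 (standard error 0.15, limma adjusted p = 0.000263), or 1.81-fold. In intercaruncular tissue IL18 ran from -0.68 to 0.04 (median -0.47) in cyclic and from -0.59 to 0.75 (median 0.28) in pregnant cows. There 8 of 12 pregnant cows lay above every cyclic cow, and the change was 0.65 (standard error 0.14, limma adjusted p = 0.00282), or 1.57-fold.

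IL1B, the main secreted ligand of the inflammasome, ran in caruncular tissue from -0.96 to 1.01 (median -0.36) in cyclic and from -0.51 to 2.21 (median 0.56) in pregnant cows. The groups overlapped over most of their range, with 3 of 12 pregnant cows above every cyclic cow and 11 of 12 above the cyclic mean. The change was 0.79 (standard error 0.28, limma adjusted p = 0.0443), or 1.73-fold, and this call was the closest to the threshold. It was lost without the filter on signal (adjusted p = 0.0619), by the methods' t-test on the same values (adjusted p = 0.0595) and with the slide as a random block (adjusted p = 0.163). Intercaruncular IL1B ran from -1.60 to 0.48 (median -0.70) in cyclic and from -1.25 to 0.50 (median -0.12) in pregnant cows, and the difference of 0.38 (95% interval -0.10 to 0.86, limma adjusted p = 0.262) did not pass.

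IL1A, which is active without cleavage by CASP1, had the largest SD of the members in both caruncular groups and in cyclic intercaruncular samples, while in pregnant intercaruncular samples IL1RN and PYCARD varied as much or more. Its caruncular ratio ran from -2.16 to 1.57 (median 0.14) in cyclic and from -0.47 to 2.36 (median 0.88) in pregnant cows. The difference was 0.98 (standard error 0.40, limma adjusted p = 0.0751), larger in size than that of IL18 but not past the threshold. Without the cows of the mixed scan batch it was 1.21 with an adjusted p of 0.0284. In intercaruncular tissue IL1A ran from -2.00 to 0.66 (median -1.29) in cyclic and from -1.96 to -0.05 (median -0.80) in pregnant cows. No pregnant cow exceeded the highest cyclic cow there, and the difference was 0.32 (95% interval -0.28 to 0.93, limma adjusted p = 0.462).

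Both antagonists rose in caruncular tissue, where the ligands IL1B and IL18 passed the test and IL1A did not. IL1RN ran from -1.58 to 0.05 (median -0.73) in cyclic and from -0.74 to 1.77 (median 0.39) in pregnant cows, a change of 1.10 (standard error 0.27, limma adjusted p = 0.00458), or 2.15-fold. Every pregnant cow lay above the cyclic mean and 7 of 12 lay above every cyclic cow. In intercaruncular tissue IL1RN ran from -0.82 to 0.48 (median -0.24) in cyclic and from -1.05 to 1.11 (median 0.27) in pregnant cows. There 5 of 12 pregnant cows lay above every cyclic cow and 2 below every one, and the difference of 0.28 (95% interval -0.24 to 0.80, limma adjusted p = 0.461) did not pass.

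IL18BP ran in caruncular tissue from -0.44 to -0.01 (median -0.29) in cyclic and from -0.19 to 0.92 (median 0.60) in pregnant cows. The groups overlapped in few animals, with 10 of 12 pregnant cows above every cyclic cow. Its change was 0.70 (standard error 0.12, limma adjusted p = 0.000272), or 1.63-fold. Intercaruncular IL18BP ran from -0.69 to 0.33 (median 0.03) in cyclic and from -0.08 to 1.08 (median 0.43) in pregnant cows. The difference of 0.42 (standard error 0.13, limma adjusted p = 0.0278) passed on the adjusted p but, at 1.34-fold, not on its size.

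IL1R1, the signalling receptor for IL1A and IL1B, was not called in either tissue. It ran from -0.49 to 0.39 (median -0.08) in cyclic and from -0.81 to 0.52 (median 0.14) in pregnant caruncular samples, a difference of 0.19 (95% interval -0.08 to 0.46, limma adjusted p = 0.297). In intercaruncular samples it ran from -0.65 to 0.36 (median -0.45) in cyclic and from -0.75 to -0.19 (median -0.53) in pregnant cows, a difference of -0.21 (95% interval -0.49 to 0.06, limma adjusted p = 0.267). It was the 1 member whose difference had opposite signs in the 2 tissues.

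All 3 inflammasome components rose in caruncular tissue, and PYCARD and NLRP3 in intercaruncular tissue. Caruncular PYCARD ran from -1.01 to -0.27 (median -0.79) in cyclic and from -0.19 to 1.31 (median 0.63) in pregnant cows, with no overlap between the groups. The change was 1.24 (standard error 0.16, limma adjusted p = 6.38e-06), or 2.36-fold. In intercaruncular tissue PYCARD ran from -1.11 to -0.61 (median -0.86) in cyclic and from -0.73 to 0.94 (median 0.29) in pregnant cows, with 11 of 12 pregnant cows above every cyclic cow. The change there was 1.03 (standard error 0.20, limma adjusted p = 0.00100), or 2.04-fold. The cyclic cows were close together (SD 0.21 and 0.15 in the 2 tissues, n = 10) and the pregnant cows were not (SD 0.48 and 0.64, n = 12).

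NLRP3, the sensor, ran in caruncular tissue from -1.05 to 0.44 (median -0.34) in cyclic and from -0.19 to 0.91 (median 0.68) in pregnant cows, a change of 0.88 (standard error 0.15, limma adjusted p = 0.000250), or 1.84-fold. All but 2 of the 12 pregnant cows lay above every cyclic cow. In intercaruncular tissue it ran from -1.39 to -0.54 (median -0.79) in cyclic and from -1.03 to 0.24 (median -0.17) in pregnant cows, a change of 0.60 (standard error 0.15, limma adjusted p = 0.00634), or 1.51-fold. The size of these changes depended on the background correction. With normexp and loess they were 0.57 and 0.26, under 1.5-fold in both tissues, and with the filter applied to the background-subtracted signal NLRP3 was not tested.

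CASP1, the protease, ran in caruncular tissue from -1.12 to 0.16 (median -0.62) in cyclic and from -0.35 to 0.86 (median 0.25) in pregnant cows. Every pregnant cow lay above the cyclic mean, and the change was 0.79 (standard error 0.17, limma adjusted p = 0.00161), or 1.73-fold. Intercaruncular CASP1 ran from -0.88 to 0.10 (median -0.22) in cyclic and from -0.83 to 0.95 (median 0.32) in pregnant cows. There 8 of 12 pregnant cows lay above every cyclic cow and 3 below the cyclic mean, and the difference was 0.52 (95% interval 0.09 to 0.95, limma adjusted p = 0.0764). Within the larger scan batch alone it was 0.62 with an adjusted p of 0.0344.

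**Figure D2:**
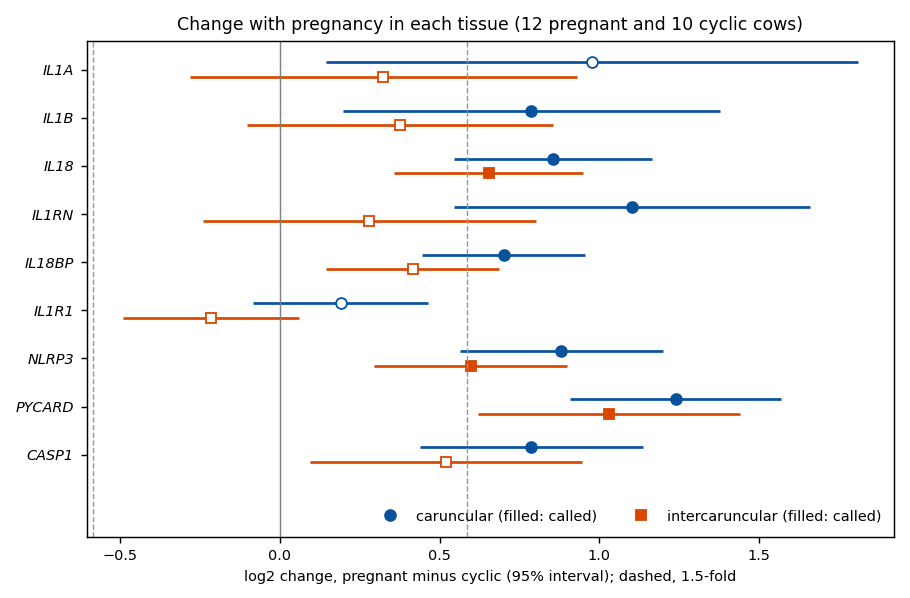
Log2 change of each member between 12 pregnant and 10 cyclic cows (horizontal axis) with its 95% interval, circles for caruncular and squares for intercaruncular tissue, filled where the member was called. The caruncular estimate is to the right of the intercaruncular one for all 9 members, by 0.20 (IL18) to 0.82 (IL1RN), and the intervals overlap. Of all probes tested 46.2% had the higher estimate in caruncular tissue.

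The change with pregnancy had a higher estimate in caruncular than in intercaruncular tissue for 9 of 9 members, but no member passed the test of that difference. The estimate was higher in caruncular tissue for 46.2% of all probes tested. The interaction was called at an adjusted p under 0.05 in 0.0511% of all probes tested. Its largest estimates among members were 0.82 for IL1RN (standard error 0.38, unadjusted p = 0.0348 and limma adjusted p = 0.632) and 0.65 for IL1A (standard error 0.51, limma adjusted p = 0.897). The tissues came from the same cows, and when the cow entered as a random block 440 probes in place of 8 were called and the lowest adjusted p among members was 0.0876, for IL1RN. The 9 estimates share the same 44 samples.

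On the slide that held both states, the 3 pregnant caruncular samples exceeded the 1 cyclic sample by 1.27 for PYCARD, 1.04 for IL18, 1.30 for CASP1 and 0.80 for IL18BP, and IL1R1 was lower by 0.28 (difference -0.28). The corresponding intercaruncular slide gave 1.07 for PYCARD, 0.84 for IL18, 1.28 for CASP1 and 0.46 for NLRP3, and for IL1R1 a difference of -0.82, beside -0.21 over all cows. With 1 cyclic cow per slide this fit called 0 of 9 members in either tissue, and 57 and 128 probes in all. Within the larger scan batch of each tissue (11 pregnant and 9 cyclic cows) 8 members were called in caruncular tissue, IL1A being added. In intercaruncular tissue 3 were called, with CASP1 in place of NLRP3 (0.53, below 1.5-fold). The share of all probes called within this batch is not given here, so these counts are not set against it. The part of the slide in these results was not tested beyond these values.

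To set agonists against antagonists, the ratio of a ligand was subtracted from that of its antagonist in each sample, as a description. IL1RN minus IL1B had lower medians in caruncular than in intercaruncular tissue, at -0.48 in cyclic and -0.25 in pregnant caruncular samples and 0.40 and 0.31 in intercaruncular samples. Tissue and scan batch coincided in most cows. In the cyclic cow whose tissues shared a slide the difference was -0.96 in caruncular and -0.99 in intercaruncular tissue. In the pregnant cow with a shared slide it was -0.22 and -0.31. The part of the batch was not tested. Pregnancy moved IL1RN minus IL1B little beside its spread. The pregnant mean exceeded the cyclic mean by 0.32 in caruncular tissue, where the SD was 0.79 in cyclic and 1.00 in pregnant cows. In intercaruncular tissue the difference of the means was -0.10, with 6 of 12 pregnant cows on either side of the cyclic mean. IL1RN minus IL1A gave a like picture, with differences of the means of 0.13 and -0.04.

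IL18BP minus IL18 had lower medians in pregnant cows. In intercaruncular tissue it ran from -0.73 to 0.81 (median 0.55) in cyclic and from -0.06 to 0.55 (median 0.12) in pregnant cows, with 11 of 12 pregnant cows below the cyclic mean. In caruncular tissue it ran from 0.19 to 1.22 (median 0.65) in cyclic and from -0.01 to 1.02 (median 0.48) in pregnant cows, with 9 of 12 below the cyclic mean. The differences of the means were -0.24 and -0.15 and were not tested, and the lowest cyclic intercaruncular value, -0.73, stood for 1 cow. The ranges of the groups overlapped in both tissues.

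**Figure D3:**
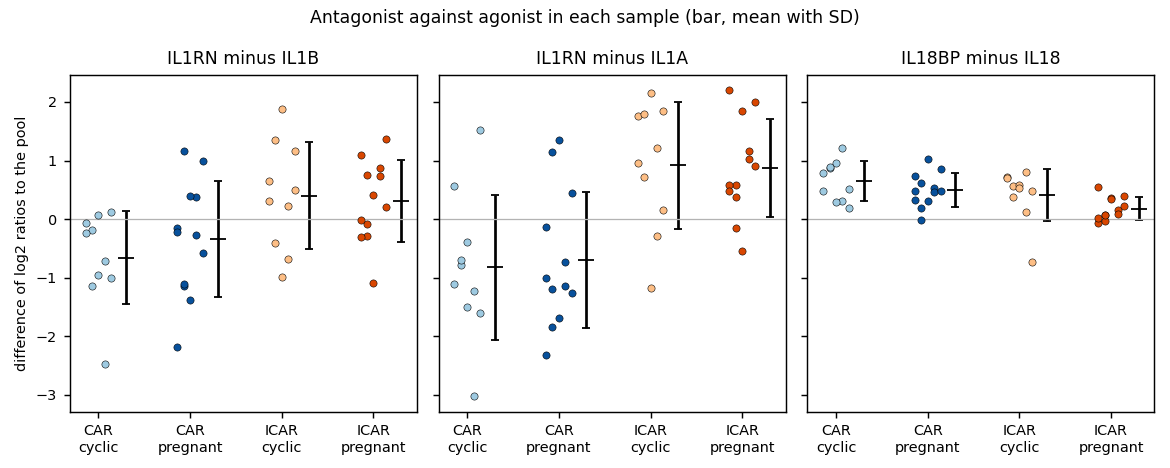
Difference between the log2 ratios of an antagonist and its ligand (vertical axis) in each sample, with 1 point per cow and a bar for the mean and SD in each of the 4 groups. Both differences with IL1RN have lower means in caruncular than in intercaruncular tissue, but tissue and scan batch coincide in most cows. IL18BP minus IL18 has its lowest median, 0.12, in pregnant intercaruncular samples.

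Cows with more IL18 also had more IL18BP when they were pregnant. Over 12 pregnant cows Pearson's r was 0.88 in intercaruncular tissue (Spearman's rho 0.92, permutation p = 0.00021 and 0.00011, adjusted over 8 relations 0.00168 and 0.00088). In caruncular tissue r was 0.73 (rho 0.66, permutation p = 0.00728 and 0.0232, adjusted 0.0291 and 0.0928). Without the 2 cows farthest from the median of IL18, r was 0.90 and 0.87. Within the larger scan batch (11 cows) r was 0.88 in intercaruncular and 0.705 in caruncular tissue, where the adjusted permutation p rose to 0.0612. Slides held at most 4 of these cows, too few for a value within each. Over the samples of both states, with group means removed, r was 0.53 for this pair. By that measure IL18 was closer to IL1RN (0.66) and PYCARD (0.58). Those 2 pairs were not correlated within pregnant cows alone. Whether the relation in pregnant cows was particular to the binding protein was therefore not tested.

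In 10 cyclic cows no relation of ligand to antagonist was found. For IL18 and IL18BP r was -0.04 in caruncular and -0.44 in intercaruncular tissue (permutation p = 0.905 and 0.202), and the second value turned to 0.65 without the 2 cows farthest from the median of IL18, 1 of which had IL18BP at -0.69. IL1B and IL1RN were not related in any group. Their r was 0.08 and 0.12 in cyclic and pregnant caruncular samples and -0.44 and 0.41 in intercaruncular samples, with permutation p of 0.181 or more. Whether the relation differs between the groups was not tested.

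**Figure D4:**
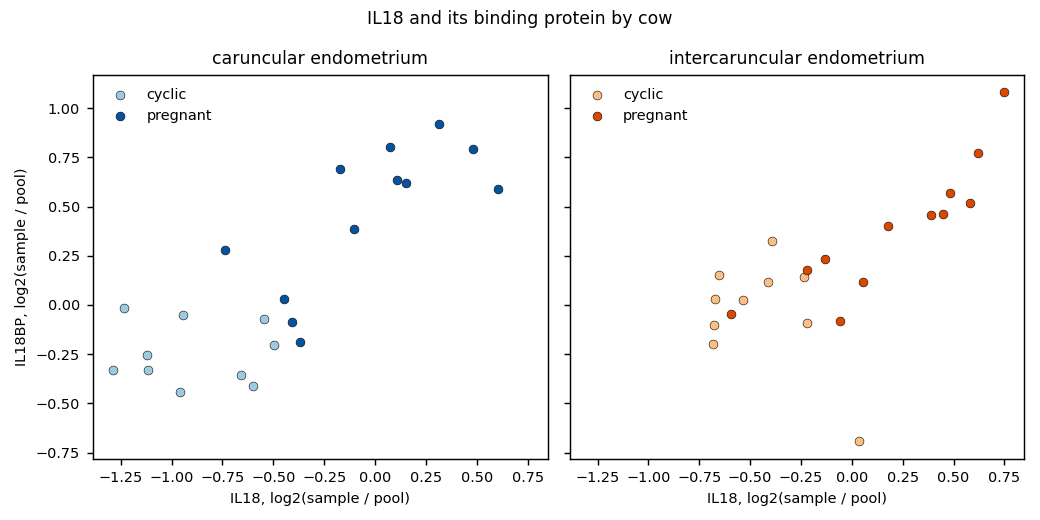
Log2 ratio to the pool of IL18 (horizontal axis) and of IL18BP (vertical axis), with 1 point per cow and 1 panel per tissue. The pregnant cows lie along a rising band (r = 0.73 and 0.88, n = 12), and 1 cyclic intercaruncular cow lies alone at an IL18BP ratio of -0.69.

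Of 23 other genes of the inflammasome machinery tested, 7 were called higher and 1 lower in caruncular tissue, and 7 higher and 0 lower in intercaruncular tissue, with medians of 0.35 and 0.38. IFI16, a DNA sensor of the interferon response, rose by 2.77 (standard error 0.20, limma adjusted p = 8.69e-10) and 2.02 (standard error 0.16, adjusted p = 8.87e-09). NLRC5, better known as an activator of MHC class I genes, rose by 1.80 and 1.31 and CASP4, a caspase that senses cytosolic lipopolysaccharide, by 1.60 and 0.94. NLRC4, a sensor of bacterial flagellin, rose by 1.28 and 0.85, and its partner NAIP by 1.09 and 1.01. The caspase CASP8 rose by 1.24 and 0.87 and RIPK3, a kinase of necroptosis, by 0.87 and 0.68. MEFV, which encodes pyrin, was the 1 sensor lower in pregnant cows, by a change of -0.68 in caruncular tissue (limma adjusted p = 0.00841). GSDMD, the pore through which IL1B leaves the cell, had a difference of 0.50, below 1.5-fold. The probes of 6 further genes of this list, among them NLRP1, NLRP6 and P2RX7, did not pass the filter on signal.

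The tested transcripts of genes that act downstream of the receptor changed by less than 1.5-fold between the states. Signalling itself was not measured. None of 19 adaptors, kinases and inhibitors tested was called in either tissue, with medians of 0.03 and 0.07. Among all probes tested the called shares were 5.96% (higher) and 4.27% (lower) for caruncular samples, beside 4.15% and 3.29% for intercaruncular ones. MYD88 had a caruncular difference of 0.30 (limma adjusted p = 0.00425), below 1.5-fold. The wider family gave 0 calls from 3 genes tested (the decoy receptor IL1R2, SIGIRR and the co-receptor IL1RAP). IL18R1 and IL18RAP, the chains of the IL18 receptor, did not pass the filter on signal and were not tested.

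Genes that IL1 or IL18 is known to induce did not move as a group. Of 14 tested, 2 were called higher in caruncular tissue, and 1 higher and 1 lower in intercaruncular tissue, with medians of 0.09 and 0.06. Of all probes tested 5.96% were called higher in caruncular tissue, and 4.15% higher and 3.29% lower in intercaruncular tissue. In caruncular tissue the chemokine CCL2 rose by 1.04 (standard error 0.33, limma adjusted p = 0.0221) and the cytokine TNF by 0.89 (standard error 0.21, adjusted p = 0.00417). IFNG, the classical product of IL18 action, rose by 0.99 (standard error 0.34, limma adjusted p = 0.0428) in intercaruncular tissue, and PTGES, a prostaglandin E synthase, fell there by a change of -0.91 (standard error 0.21, adjusted p = 0.00471). IL6, CXCL8, CXCL2 and PTGS2 had caruncular differences of 0.03, 0.28, 0.07 and -0.03, none of which passed. Other uncalled genes of the list differed by more. Over the 14 genes caruncular differences ran from -1.17, which was not called, to 1.04. The intercaruncular ones ran from -0.98 to 0.99.

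Markers of myeloid cells moved in the same direction as the members. Of 14 macrophage and monocyte markers tested (16 listed), 10 were called higher in caruncular and 8 in intercaruncular tissue and none lower, with medians of 1.01 and 0.66. For this and the lists below, 5.96% of all probes tested were called higher in caruncular and 4.15% in intercaruncular tissue. The shares called lower were 4.27% and 3.29%. SIGLEC1 rose by 3.35 and 2.45, C1QB by 1.79 and 1.23 and FCGR3A by 1.78 and 1.69. The mean log2 ratio over these 14 markers ran from -1.24 to -0.28 in cyclic and from -0.17 to 1.00 in pregnant caruncular samples, and from -1.12 to -0.32 and -0.57 to 0.81 in intercaruncular samples. CD14 and CD68 were well above background in every sample, while MARCO was so in 0 of 10 cyclic and 0 of 12 pregnant caruncular samples. Of 7 NK cell markers 3 were called higher in caruncular and 1 in intercaruncular tissue, and of 8 T lymphocyte markers 0 in either. Of 4 neutrophil markers tested S100A12 was called higher in caruncular tissue (0.99, limma adjusted p = 0.0182) and 0 in intercaruncular tissue, with medians of 0.54 and 0.52. Their caruncular changes ran from -0.35 to 0.99. MPO was well above background in no sample of any group. S100A8 and S100A9 were each well above background in 7 of 10 cyclic and 12 of 12 pregnant caruncular samples. In intercaruncular samples S100A8 was so in 5 of 10 and 10 of 12, and S100A9 in 10 of 10 and 12 of 12. Caruncular CSF3R was so in 1 of 10 cyclic and 1 of 12 pregnant samples, and CXCR2 in 0 of 10 and 3 of 12. Of 6 endothelium markers 2 were called lower in each tissue (medians -0.37 and -0.42). Of 8 stroma markers 1 was called higher and 1 lower in caruncular tissue and 3 lower in intercaruncular tissue, and of 6 epithelium markers 2 were called higher in each tissue and 1 lower in caruncular tissue. SIGLEC1 is also known as an interferon-induced gene. The part of these cell types in the members' changes was not tested.

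**Figure D5:**
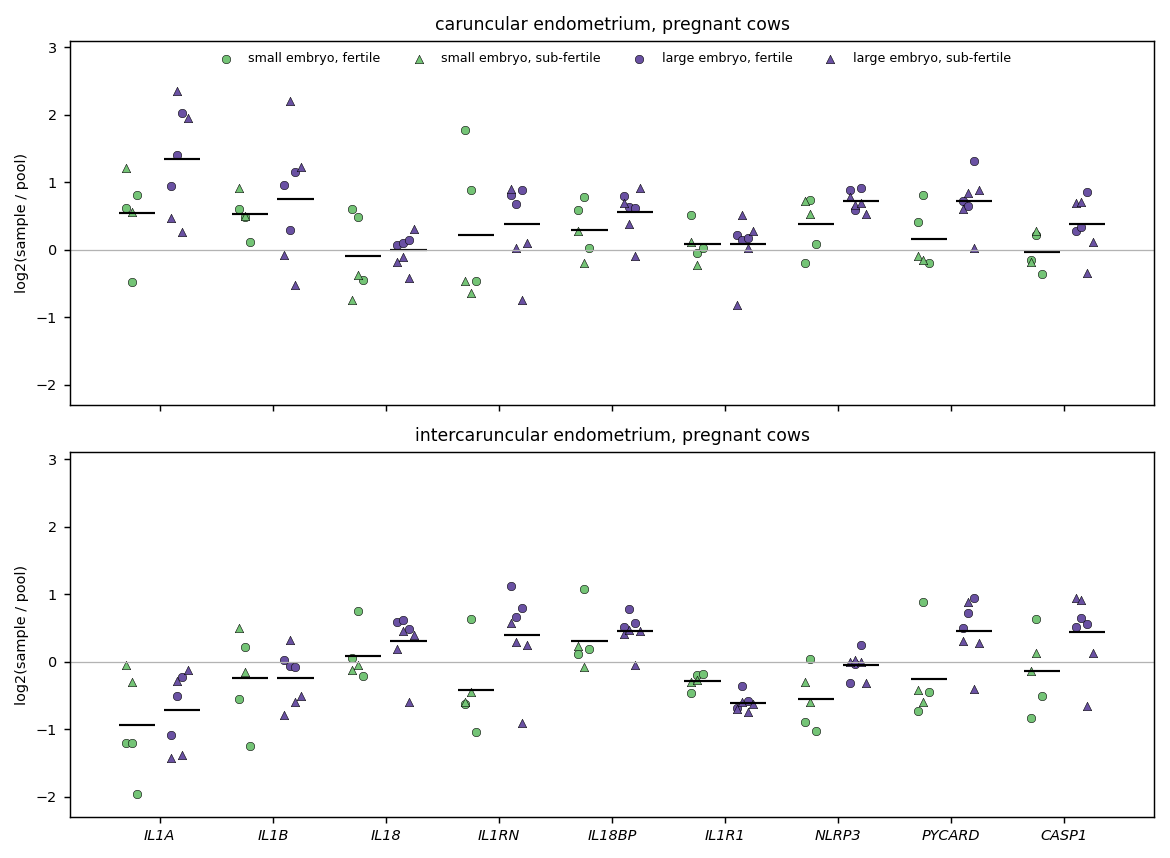
Log2 ratio to the pool (vertical axis) of the 9 members in pregnant cows, small embryos in green and large in purple, circles for fertile and triangles for sub-fertile cows, and lines at the mean of each embryo class. In intercaruncular tissue IL1R1 sits lower with a large embryo, while for PYCARD 1 small-embryo cow, at 0.87, lies among the large.

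Embryo size separated no member at an adjusted p under 0.05 in either tissue, where 0% of probes were called in caruncular and 3.38% in intercaruncular endometrium. In caruncular tissue no probe at all passed by limma, and 1072 had an unadjusted p under 0.05. All 9 caruncular members had higher means with a large embryo, from 0.003 for IL1R1 to 0.80 for IL1A (95% interval -0.06 to 1.65, limma adjusted p = 0.731). Of all probes tested 53.7% were higher with a large embryo, and the 9 estimates share the same cows. For IL1R1, IL1RN and IL18 the sign turned when single small-embryo cows were left out, to as low as -0.07, -0.05 and -0.07. Caruncular PYCARD ran from 0.04 to 1.31 (median 0.73) with a large embryo, and with a small embryo the values were -0.19, -0.15, -0.09, 0.42 and 0.82. The ranges overlapped, and the difference was 0.56 (95% interval 0.08 to 1.04, limma adjusted p = 0.694).

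The intercaruncular member closest to the threshold was the receptor. IL1R1 ran from -0.75 to -0.37 (median -0.63) with a large embryo, and with a small embryo it was -0.47, -0.31, -0.28, -0.19 and -0.19. All but 1 of the 7 large-embryo cows lay below every small-embryo cow, and the difference was -0.33 (standard error 0.09, limma adjusted p = 0.0548). It passed with normexp and loess (adjusted p = 0.0426) and with the slide as a random block (adjusted p = 0.0382), and without each small-embryo cow in turn the adjusted p was 0.0826 to 0.139.

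PYCARD, NLRP3, IL1RN and CASP1 leaned the other way in intercaruncular tissue. For CASP1 the difference was 0.58 (95% interval -0.07 to 1.23, limma adjusted p = 0.287). PYCARD was -0.73, -0.60, -0.45, -0.42 and 0.87 with a small embryo and ran from -0.40 to 0.94 (median 0.50) with a large one, a difference of 0.72 (95% interval 0.09 to 1.36, limma adjusted p = 0.176). The small-embryo cow at 0.87 shared its slide with the 3 fertile cows that had a large embryo. The difference of PYCARD was 0.67 (adjusted p = 0.145) when slides entered as a random block and 0.71 (adjusted p = 0.103) as a fixed one. Without this cow the difference was 1.01 (adjusted p = 0.0341) for PYCARD and 0.65 (adjusted p = 0.0384) for NLRP3, and 2 of 9 members passed. That fit left out the small-embryo cow that lay against the difference. Over all 12 cows 0 of 9 members passed, and no other small-embryo cow left out gave as many. The share of all probes called in that fit is not given here. NLRP3 was -1.03, -0.90, -0.60, -0.31 and 0.04 with a small embryo and ran from -0.31 to 0.24 (median -0.01) with a large one, a difference of 0.50 over all 12 cows (limma adjusted p = 0.125). Intercaruncular IL1RN was -1.05, -0.64, -0.60, -0.46 and 0.63 with a small embryo and ran from -0.91 to 1.11 (median 0.56) with a large one. Its difference was 0.81 (95% interval 0.08 to 1.55, limma adjusted p = 0.191), and 0.71 (adjusted p = 0.0473) once the slide entered as a fixed block.

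The ligands differed little with embryo size in intercaruncular tissue. The difference was 0.003 for IL1B (95% interval -0.61 to 0.62), 0.22 for IL18 (-0.26 to 0.70) and 0.22 for IL1A (-0.53 to 0.98), by limma. IL1RN minus IL1B had a higher median with a large embryo, at 0.74 against -0.08 in intercaruncular tissue, with ranges of -0.31 to 1.36 and -1.10 to 0.41 that overlapped. Of the 23 other inflammasome genes tested 2 were called for embryo size in this tissue, where 3.38% of all probes tested were called. They were IFI16 (0.85, limma adjusted p = 0.0270) and FADD (0.74, adjusted p = 0.0232), both higher with a large embryo.

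The fertility label separated no member either, where it called 0.00639% of all probes tested in caruncular and 0.0511% in intercaruncular endometrium. IL1RN had the largest caruncular difference among members. It ran from -0.46 to 1.77 (median 0.85) in 6 fertile and from -0.74 to 0.91 (median -0.22) in 6 sub-fertile cows, with 3 sub-fertile cows below every fertile cow. The difference, sub-fertile less fertile, was -0.89 (95% interval -1.65 to -0.13, limma adjusted p = 0.318). IL18 followed with -0.41 in caruncular (95% interval -0.83 to 0.01, limma adjusted p = 0.378) and -0.34 in intercaruncular tissue (adjusted p = 0.479). Caruncular IL1RN minus IL1B had medians of 0.11 in fertile and -1.13 in sub-fertile cows, with overlapping ranges. The label nearly followed the slides, and in each tissue a single slide, of 4 pregnant cows, held both labels. With slides blocked, a fit that rests on those cows, the intercaruncular difference of IL1RN turned from -0.40 to 0.69. That of IL18 turned from -0.34 to 0.24.

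Between the tissues of the same cows, IL1A was called higher in caruncular endometrium in both states and IL1B in pregnant cows alone. IL1A exceeded its intercaruncular level in 9 of 10 cyclic and 12 of 12 pregnant cows, by a mean of 1.18 (standard error 0.38, limma adjusted p = 0.0124) and 1.83 (standard error 0.34, adjusted p = 3.31e-05). IL1B did so in 9 of 10 and 12 of 12 cows, with differences of 0.50 (limma adjusted p = 0.158) and 0.91 (standard error 0.25, limma adjusted p = 0.00316). The cyclic difference of IL1B was below 1.5-fold, with an SD of 0.41 within cows. These fits did not pair the tissues of a cow, and the cow as a block changed no member's call. Among cyclic cows IL1A was called, 1 of 9 members where 7.6% of all probes tested were called higher. Among pregnant cows IL1A, IL1B and NLRP3 were called, 3 of 9 members against 9.67%. NLRP3 was higher by 0.56 in cyclic and 0.85 in pregnant cows (limma adjusted p = 0.00484 and 8.38e-06), and was higher in 9 of 10 and 12 of 12 cows. With normexp and loess its difference in pregnant cows was 0.58, below 1.5-fold.

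IL18 leaned the other way, with its intercaruncular level the higher in 10 of 10 cyclic and 10 of 12 pregnant cows. Its differences were -0.45 (limma adjusted p = 0.0197) and -0.25 (adjusted p = 0.145), both below 1.5-fold. IL1R1 was higher in caruncular tissue of 11 of 12 pregnant cows, by 0.56 (limma adjusted p = 0.000387), also below 1.5-fold. The co-receptor IL1RAP was higher in caruncular tissue by 1.04 in cyclic and 0.99 in pregnant cows (limma adjusted p = 1.82e-05 and 3.56e-06). Markers of other cell types differed as well. Of 8 stroma markers 3 were called higher in caruncular tissue of cyclic and 6 of pregnant cows, where 7.6% and 9.67% of all probes tested were. Of 6 epithelium markers 2 and 4 were called lower, while CDH1 was called higher in pregnant cows (0.83). The epithelium medians were -0.33 and -0.75, beside -0.01 and -0.02 over all probes tested. The share of all probes called lower was not counted. The part of these cell types in the tissue differences was not tested. The tissues were scanned in separate batches, so that tissue and batch cannot be told apart in 20 of 22 cows. In the 2 cows whose tissues shared a slide, the caruncular excess was 0.90 (cyclic) and 1.65 (pregnant) for IL1A, 0.54 and 0.09 for IL1B, 0.85 and 0.71 for NLRP3, and 0.71 and 0.78 for IL1R1. For IL18 it was -0.09 and 0.19. With the scan batch as a fixed block, a fit that rests on these 2 cows, 0 of 9 members were called in either state.

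Cows that departed from their group mean in 1 member often did so in others. Over the 44 samples, after the mean of each of the 4 groups was removed, r was 0.76 between IL1A and IL1B, 0.68 between IL18BP and PYCARD, 0.66 between IL18 and IL1RN and 0.66 between CASP1 and PYCARD. IL1R1 stood apart, with r of -0.02 to IL1B, -0.06 to IL1A and -0.36 to CASP1. These values are descriptions, since samples share cows and slides. By the same measure, over 12311 symbols outside the family, CASP1 was most like CARD12, the older name of NLRC4 (r = 0.86), PYCARD was most like BOLA-DMB (0.85), and IL18 most like NT5C3 (0.86). NOD27, the older name of NLRC5, was the third for IL18BP (0.75), after FLJ22374 (0.80) and TAPBPL (0.77). IL1A was most like ADCY2 (0.88), IL1B like NR0B1 (0.76), IL1RN like YARS (0.85), NLRP3 like LAPTM5 (0.68) and IL1R1 like SH3BP4 (0.75).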

How the data were processed

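RNA from 44 endometrial samples was hybridised to 48 Agilent bovine arrays of 2 colours (4 caruncular samples on 2 arrays each), with the sample in Cy5, a pool of all samples in Cy3, and no dye swap. Per the file headers, the log10 ratios came from Agilent Feature Extraction 9.5.3.1, which had subtracted background and normalized the dyes, and the deposited intensity columns were the processed and raw signals of each channel. A deposited log2 matrix of the authors held 17855 of the probes, and 40 of its 48 columns equalled the converted ratios within 1e-05.

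Log10 ratios were converted to log2, control spots and outlier flags left out, the spots of a probe and the repeat arrays of a sample averaged, and each array centred on its median. Of 21475 probes, 15646 were tested (15644 for pregnancy in intercaruncular tissue). These had a sample signal both well above background and of at least 80 raw units in at least 22 samples. limma 3.58.1 in R 4.3.3 compared the groups, and p-values were adjusted by Benjamini-Hochberg across every tested probe. A call needed an adjusted p under 0.05, and for pregnancy and tissue also a change of 1.5-fold. Sample against pool ratios have no read depth, and the number of arrays limits the precision. Correlations used 100000 permutations. The fits were tested on simulated data.

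Samples were grouped by their labels, each being 1 tissue of 1 cow. Tissues with the same cow number came from the same animal, and their deviations correlated in all cows (r of at least 0.129 in cyclic and 0.305 in pregnant cows), so the cow was also used as a block. All members and a fixed rule (the 3 most alike symbols of each) set the genes named. Members and lists were chosen with earlier results of these data known. Genes named from the lists after their values were seen are those called and a few known for the pathway. Alternatives were the deposited matrix, normexp (offset 50) with loess, leaving out the centring or the filter, slide and scan blocks, covariates, the methods' t-test and leaving out each small-embryo cow. Slide and scan blocks for some comparisons, the processed-signal filter and the larger scan batch alone were added after seeing the data. Probe sequences came from the study's supplementary probe table.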

Additional observations from a re-analysis of the deposited data

Results flagged for a closer look

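Among 90 sets of member values of 4 to 10 samples, 10 had a lowest or highest sample far from the others of its group by Dixon's criterion, which chance alone gives in about 1 of 20 groups. A fertile cow with a small embryo was the highest of its class in intercaruncular tissue for IL18 (0.75), IL18BP (1.08) and PYCARD (0.87). A sub-fertile cow with a large embryo, measured in the mixed scan batch, was the lowest of its class there for IL18 (-0.59) and IL1RN (-0.91). For IL1R1, 1 cow with a large embryo was the lowest of its class in caruncular tissue (-0.81), and another the highest in intercaruncular tissue (-0.37). For IL18BP, 1 fertile cow was the lowest of its class in caruncular tissue (0.0286), and 1 cyclic cow in intercaruncular tissue (-0.69). For PYCARD, 1 cyclic cow was the highest of its group in caruncular tissue (-0.27).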

How the results depend on the processing

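With the slide as a fixed block, which leaves 1 cyclic cow against 3 pregnant cows, 0 members were called for pregnancy in either tissue, and caruncular IL1R1 turned to -0.28. With the scan batch as a fixed block, which leaves 2 cows, 0 members were called between tissues in cyclic or pregnant cows, and CASP1 in cyclic cows turned to 0.17 and IL18 and IL18BP in pregnant cows to 0.15 and -0.0377. CASP1 in pregnant cows was -0.00541 with normexp and loess. For embryo size in intercaruncular tissue 1 member was called with normexp and loess, with the slide as a random block and with it as a fixed block, and 0 to 2 without each small-embryo cow in turn, the 2 (PYCARD and NLRP3) without the cow that shared a slide with large-embryo cows. There IL1B turned to -0.0179 with normexp and loess, -0.00855 with the slide as a random block and -0.0114 with fertility as a covariate, and without each cow IL1B ran from -0.25 to 0.19 and IL1A from -0.0314 to 0.45. In caruncular tissue IL1R1 was -0.0200 with normexp and loess and -0.0195 in the deposited matrix, and without each cow IL1R1 ran from -0.0720 to 0.11, IL1RN from -0.0505 to 0.55 and IL18 from -0.0726 to 0.26. For fertility the slide as a fixed block leaves, in each tissue, the 4 pregnant cows of the single slide that held both labels. There caruncular IL18BP, IL1R1 and PYCARD turned to 0.0226, 0.0533 and 0.26, and intercaruncular IL18, IL1RN, IL18BP and PYCARD to 0.24, 0.69, 0.20 and 0.82. With embryo size as a covariate CASP1 turned to -0.0534 in caruncular and -0.0499 in intercaruncular tissue. In the larger scan batch alone IL18 and IL18BP in pregnant caruncular samples had r of 0.705 (adjusted permutation p = 0.0612, n = 11), and IL1B and IL1RN turned to -0.481 in cyclic and -0.131 in pregnant caruncular samples. Other than by the number of samples that slide, scan batch and left-out cows remove, the cause was not tested. With the cow as a replicate block, fixed or random, 0 members were called for the interaction, as without it, while 158 and 440 probes were called in place of 8, and the block changed no member's call between tissues. NLRP3, the faintest member, is the one whose signal over background limits its values most.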
